A study of Mus musculus with 6 samples.

Results

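The interleukin-1 family on these arrays was followed through 8 genes: the agonists Il1a, Il1b, Il1f6 (also called Il36a), Il1f9 (also called Il36g) and Il18, the antagonists Il1rn and Il18bp, and the receptor chain Il1rap. They were chosen by gene name out of 23517 named genes on the array, with earlier results of these data known. Of its 55681 probes, 10 carry their names. Of the 8 genes, 7 passed the filter on dim probes and were tested, and Il1f9 did not.

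The cells were RAW264.7, an established mouse macrophage line, and both groups were grown in DMEM medium with serum and antibiotics. The control group stayed in DMEM medium alone for 4 h, and the other group was exposed for 4 h to AEPS, a polysaccharide from the roots of Actinidia eriantha, a kiwifruit species, given at 50 µg/ml. Cy3-labelled cRNA of 3 labelled replicates per group was hybridised to 1-colour Agilent arrays. Whether the replicates were separate cultures is not stated in the labels, and each p-value therefore reflects only the variation between these samples, which could be technical.

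Within each group the scanner files deposited for replicates 1 and 2 were identical in their values, and each pair was counted as 1 array. This left 2 distinct arrays per group on 2 slides, with 1 control and 1 AEPS array on each slide. The authors' value table has 3 distinct columns per group. Its first and second columns ranked the probes as the first and second scanner arrays did (Spearman 0.99999 across probes), so the scanner file given for replicate 3 goes against its label and matches the second column. The third columns correlated with no scanner array above 0.965. Between 55.4% and 58.7% of 59305 non-control spots were well above background on each array, no spot was saturated, and all 8 macrophage markers were well above background on every array. The summed scaled signal of those markers was 787 and 923 on control arrays and 579 and 654 on AEPS arrays, and its part in the results was not tested.

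Interleukin-1 alpha and interleukin-1 beta signal through the interleukin-1 receptor, which recruits the accessory chain encoded by Il1rap and then the adaptor MyD88. The receptor antagonist encoded by Il1rn occupies the same receptor without recruiting that chain, and the binding protein encoded by Il18bp captures free interleukin-18. The interleukin-36 cytokines encoded by Il1f6 and Il1f9 use a receptor of their own with the same accessory chain. In macrophages, interleukin-1 beta and interleukin-18 are made as precursors that caspase-1 cleaves, and the transcript of Il1b is a familiar early product of stimulated cells.

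Promoter and probe sequences of the members the results turn on are shown first. The promoters of Il1b, Il1a and Il1rn, the agonists with the largest changes and their antagonist, run from 250 bases before the start of transcription up to it and come from RefSeq with build GRCm38.p6. Il1b lies at chr2:129371140-129371389 on the minus strand, Il1a at chr2:129309973-129310222 on the minus strand, and the annotated start of Il1rn farthest downstream at chr2:24345121-24345370 on the plus strand. They are written 5′ to 3′ with matches to the searched motifs in capitals.
Il1b: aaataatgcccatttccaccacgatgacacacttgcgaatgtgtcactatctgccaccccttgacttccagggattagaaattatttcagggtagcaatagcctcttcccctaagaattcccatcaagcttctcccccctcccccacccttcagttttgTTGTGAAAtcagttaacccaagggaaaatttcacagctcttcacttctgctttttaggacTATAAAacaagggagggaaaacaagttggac
Il1a: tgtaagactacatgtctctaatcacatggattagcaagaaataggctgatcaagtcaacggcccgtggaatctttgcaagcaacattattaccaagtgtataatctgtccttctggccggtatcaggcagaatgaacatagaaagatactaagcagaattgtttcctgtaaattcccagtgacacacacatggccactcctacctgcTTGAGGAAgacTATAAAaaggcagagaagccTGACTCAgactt
Il1rn: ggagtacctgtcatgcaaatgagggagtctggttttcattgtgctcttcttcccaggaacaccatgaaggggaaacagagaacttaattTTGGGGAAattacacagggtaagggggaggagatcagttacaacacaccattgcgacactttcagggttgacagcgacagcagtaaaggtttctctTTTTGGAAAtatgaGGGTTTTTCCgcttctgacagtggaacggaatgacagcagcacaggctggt

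Searched on both strands were GGGNNNNNCC for NF-kB, TGANTCA for AP-1, TTNNGNAA for C/EBP, GAAANNGAAA for the interferon response element (ISRE) and TATAAA for the TATA box. Of 32851 promoter windows of the same length, 45.8%, 6.75%, 36.8%, 2.98% and 12.4% held at least 1 match, in that order. The windows of Il1b and Il1a each held a TATA box that began 31 and 32 bases before the start, and a C/EBP match that began 91 and 43 bases before it. Il1a also held an AP-1 match that began 12 bases before its start. The window of Il1rn had 3 C/EBP matches, and 2 of them, TTTTGGAA and TTTGGAAA, overlapped and lay next to the NF-kB match GGGTTTTTCC that began 51 bases before the start. The first annotated start of Il1rn had an AP-1 match and an NF-kB match, and the second had a C/EBP match. Windows were found for 7 of the 8 members at 9 start sites. Those of Il18 and Il18bp held a TATA box on the opposite strand and a C/EBP match respectively, that of Il1rap held 6 partly overlapping NF-kB matches on both strands, and that of Il1f9 held none of these letters. A match describes letters only, and the NF-kB pattern was common in the background.

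The probes are 60 bases long, and their positions are those of the array design in build mm9. The Il1b probe lies at chr2:129190347-129190406 on the minus strand, and the Il1rn probe at chr2:24205094-24205153 on the plus strand. Il1rap has 3 probes on the plus strand, at chr16:26701498-26701557 for transcript variant 2, at chr16:26716515-26716574 for transcript variant 1 and at chr16:26725291-26725350 for an Ensembl transcript. These 5 are shown by their first 30 bases because the Il1rap probes gave different readings.
Il1b probe: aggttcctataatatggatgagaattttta
Il1rn probe: aacacaccggaagagccccttatagtcacg
Il1rap variant 2 probe: gatgttgtcaacgcctttgtttctaaatgt
Il1rap variant 1 probe: catacatctttcagtagtcattggcaaaat
Il1rap Ensembl transcript probe: ccattttctttaaccagctcttccttgatc

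The comparison asked which of these transcripts differed after 4 h of AEPS. Il1b, Il1a and Il1f6 rose, and so did the antagonist Il1rn by a smaller amount. Il18, Il18bp and Il1rap were higher with AEPS on both slides but did not pass in the main scanner fit, which leaves the slide out. With each AEPS array set against the control of its own slide, Il18 and Il18bp passed (limma, adjusted p = 0.0337 and 0.0403). In that fit Il1rap did not pass (limma, adjusted p = 0.0594), and 13% of tested features passed as higher. A level below is the log2 of the processed signal relative to the array's 75th percentile, so that 0 is a signal equal to that percentile, and a change is the AEPS mean minus the control mean with limma's moderated standard error. In the main fit, 4 of 7 tested members passed at an adjusted p of 0.05, all of them higher with AEPS. Of 25933 tested features, 4.18% passed as higher. Il1a is 1 of these 4 and passed the filter only through the AEPS arrays, so it had to differ. Of the 6 members above background on every array, 3 passed in the main fit. Fitted with only the 23712 features above background everywhere, these 3 passed, as did Il18 and Il1rap (limma, adjusted p = 0.0483 and 0.0497). In that fit 1277 of 23712 features passed as higher. The median change of the 7 members, with Il1a among them, was 2.10 on the log2 scale, beside -0.19 over all tested features. The 6 members above background on every array changed by 0.51 (Il18bp) to 8.34 (Il1b). With no filter on dim probes, limma called 0 of 48115 features, with 7356 at an unadjusted p under 0.05, and the 4 members missed the threshold (adjusted p between 0.0605 and 0.108).

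**Figure D1:**
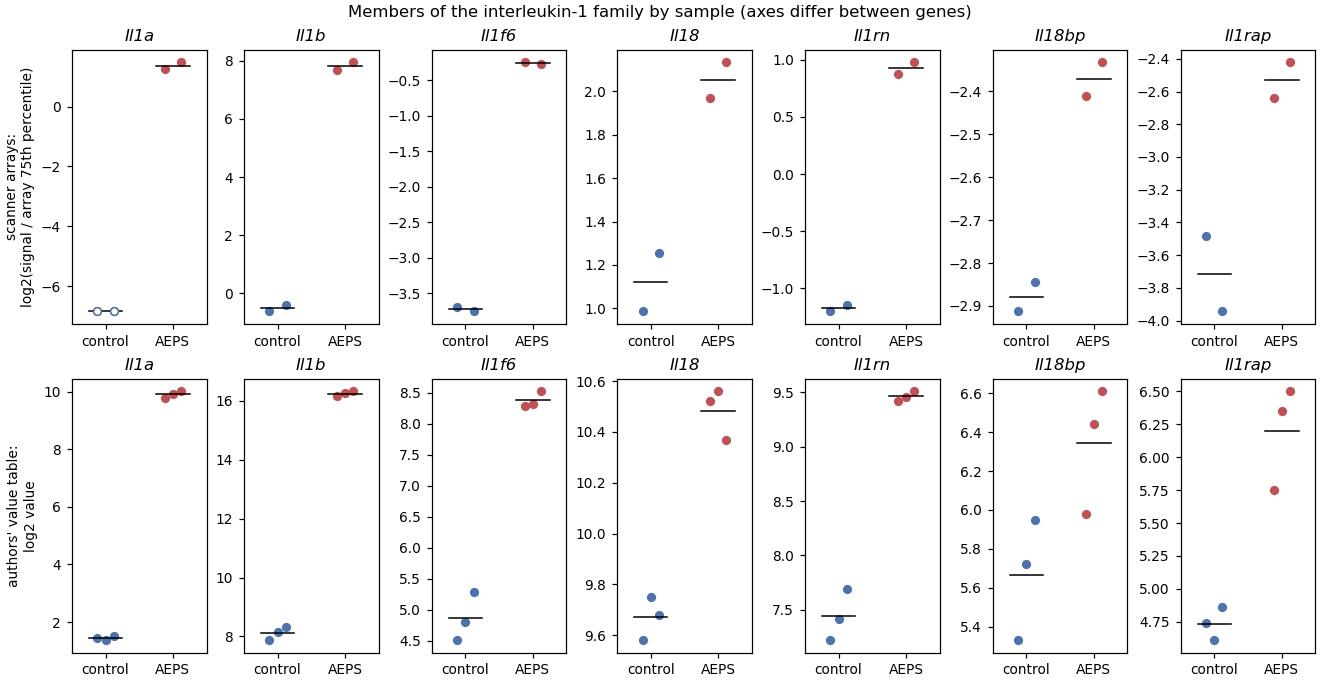
Level of each tested member on 4 scanner arrays (top, log2 of signal over the array's 75th percentile) and in 6 columns of the authors' value table (bottom, log2 value), with control in blue, AEPS in red, group means as lines and open circles for values not well above background. The groups do not overlap for any of the 7 genes in either source, and the Il1a control arrays are not well above background.

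Il1b, which encodes interleukin-1 beta, was already well above background in control cells. Its level was -0.63 and -0.41 on control arrays and 7.69 and 7.95 on AEPS arrays. Both AEPS arrays lay far above both control arrays, and each slide gave nearly the same change, 8.32 and 8.36. Il1b rose by 8.34 ± 0.17 on the log2 scale, which is 324-fold (limma, adjusted p = 0.00786). In bulk RNA, more cells with a transcript and more of it per cell cannot be told apart. Among the 23712 features above background on every array, this was the largest rise, and only 4 of 25933 tested features rose by 8 or more on the log2 scale. In the authors' table the Il1b values were 7.87, 8.15 and 8.31 in control and 16.15, 16.25 and 16.32 with AEPS, and the groups again lay far apart. For all 7 tested members every AEPS value exceeded every control value, as it did for 25.2% of features on the scanner arrays and for 23.4% in the table.

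The array carries the Il1b probe in 10 spots, which gives the technical error of the measurement. The processed signal of single spots ran from 238 to 285 on the first control array and from 107974 to 136181 on the first AEPS array. The coefficient of variation over spots was 5.53% and 3.33% on control arrays and 7.07% and 2.62% on AEPS arrays. Spread between spots was therefore small beside the difference between groups. On the log2 scale its standard deviation was 0.04 to 0.10, while that between arrays was 0.15 in control and 0.18 with AEPS (n = 2).

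Il1a, which encodes interleukin-1 alpha, an agonist that needs no caspase-1 cleavage to be active, had only background readings on both control arrays. Its processed signal was 3.52 and 2.51 in control and 1361 and 1353 with AEPS, and its level was -6.83 and -6.84 in control and 1.24 and 1.47 with AEPS. The change therefore has only a lower bound. Measured against the dimmest probe still well above background, Il1a was at least 60.3-fold higher with AEPS. The adjusted p of 0.00786 (limma) belongs to the fitted change of 8.19, not to this bound. Because the probe passed the filter only through the AEPS arrays, it had to differ between the groups. In the authors' table Il1a read 1.45, 1.37 and 1.53 in control and 9.79, 9.93 and 10.01 with AEPS, with the control values near the lowest of the table, and the fitted change was 8.46 there, 8.19 on the scanner arrays and 3.89 with normexp background correction.

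Il1f6 encodes interleukin-36 alpha, known mainly from epithelial cells. Its level was -3.70 and -3.75 on control arrays and -0.25 and -0.27 on AEPS arrays. The arrays of each group read almost alike, and the groups did not overlap. Il1f6 rose by 3.46 ± 0.13 on the log2 scale, 11.0-fold (limma, adjusted p = 0.00894), the rise ranked 75 of 25933. The authors' table gave 4.51, 4.80 and 5.29 in control and 8.28, 8.32 and 8.52 with AEPS, while normexp background correction, which adds an offset of 50 to each signal, gave a smaller change of 2.02. The defining epithelial markers on the array were above background on every array for 0 of 3 genes, and their summed level was 0.0525 and 0.0484 in control and 0.0974 and 0.0342 with AEPS.

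Il1f9, which encodes interleukin-36 gamma, was not well above background on any array and was not tested. Its level was -6.76 and -5.72 in control and -5.47 and -6.03 with AEPS. On the scanner arrays the groups overlapped, while in the authors' table the values of 1.49, 2.80 and 1.42 in control lay below those of 3.04, 2.98 and 3.37 with AEPS. Levels this close to background were not read as a difference.

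Il18 encodes interleukin-18, a caspase-1 substrate whose transcript is present in resting macrophages. Its level was 0.99 and 1.25 on control arrays and 1.97 and 2.13 on AEPS arrays. Both AEPS arrays were above both control arrays, with a difference of 0.93 ± 0.17 on the log2 scale, 1.91-fold, that did not pass (limma, adjusted p = 0.0582). With the slide as a replicate block, in which each AEPS array is set against the control of its own slide, Il18 passed (limma, adjusted p = 0.0337). In that fit 13% of tested features passed as higher. The authors' table gave 9.58, 9.75 and 9.68 in control and 10.52, 10.56 and 10.37 with AEPS, a difference of 0.81 that passed (limma, adjusted p = 0.00201), where 17.1% of tested features passed as higher.

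Il1rn, which encodes the interleukin-1 receptor antagonist, was measured above background in both groups. Its level was -1.20 and -1.15 on control arrays and 0.87 and 0.98 on AEPS arrays. The groups were well separated, and Il1rn rose by 2.10 ± 0.13 on the log2 scale, 4.28-fold (limma, adjusted p = 0.0160). The authors' table read 7.22, 7.42 and 7.69 in control and 9.42, 9.46 and 9.51 with AEPS, a change of 2.02. Without either the first or the second control array the Il1rn change was 2.07 and 2.13, and neither passed (limma, adjusted p = 0.115 and 0.0908). Il1f6 also lost its call in the same fits, with changes of 3.49 and 3.43 (limma, adjusted p = 0.0680 and 0.0562), where only 7 and 55 features passed in all.

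Il18bp encodes the secreted protein that neutralises interleukin-18. Its level was -2.91 and -2.84 on control arrays and -2.41 and -2.33 on AEPS arrays. The groups did not overlap, but the difference of 0.51 ± 0.13 on the log2 scale did not pass (limma, adjusted p = 0.0955). With the slide as a replicate block it passed (limma, adjusted p = 0.0403). In the authors' table Il18bp read 5.33, 5.72 and 5.95 in control and 5.98, 6.44 and 6.61 with AEPS, a difference of 0.68 that did not pass without the replicate block and passed with it (limma, adjusted p = 0.0742 and 0.00405). With normexp background correction the difference shrank to 0.09 on the log2 scale.

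Il1rap encodes the accessory chain shared by the receptors for interleukin-1, interleukin-33 and interleukin-36. The gene was represented by its only tested probe, that of transcript variant 2, and the protein form this transcript encodes was not examined. Its level was -3.49 and -3.94 on control arrays and -2.64 and -2.42 on AEPS arrays. Both AEPS arrays were higher, the control arrays differed from each other more than those of any other tested member, and the difference of 1.18 ± 0.22 on the log2 scale did not pass (limma, adjusted p = 0.0600, and 0.0594 with the slide as a replicate block). The authors' table gave 4.74, 4.61 and 4.86 in control and 5.75, 6.35 and 6.50 with AEPS, a difference of 1.46 that passed (limma, adjusted p = 0.00536). With normexp background correction the scanner difference was 0.24 on the log2 scale. With spike-in scaling it was 1.84 for Il1rap, 1.16 for Il18bp and 1.59 for Il18, and all 3 passed.

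The other Il1rap probes read differently. The probe of transcript variant 1 was not well above background on any array, with levels of -6.60 and -6.70 in control and -5.49 and -5.17 with AEPS. The Ensembl transcript probe had a level of -1.46 on the first control array, where it was well above background, and of -4.78, -5.59 and -6.05 on the second control array and both AEPS arrays, where it was not. Neither was tested, so a direction for Il1rap rests on the variant 2 probe alone and was not read for the other transcripts.

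**Figure D2:**
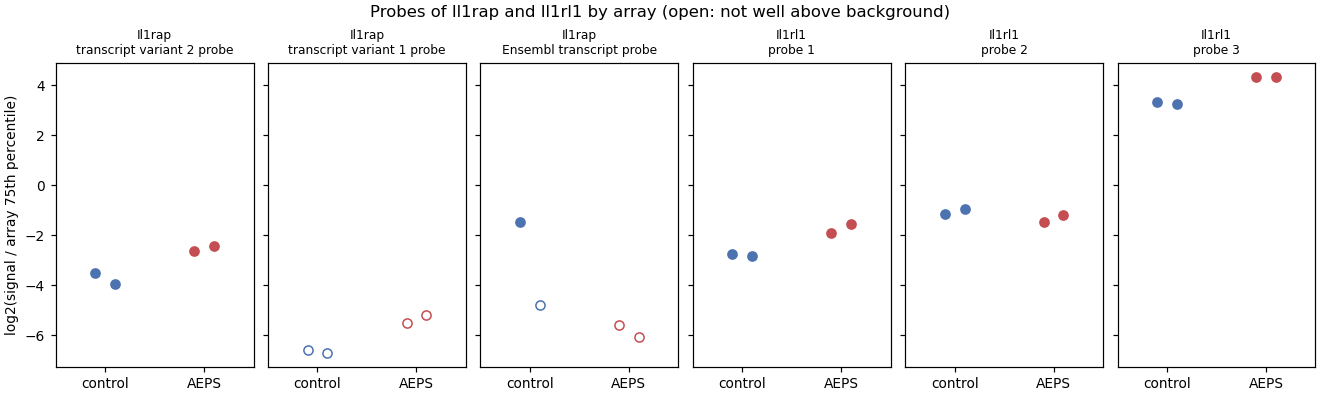
Level of each probe of Il1rap and Il1rl1 on the 2 control (blue) and 2 AEPS (red) arrays, as log2 of signal over the array's 75th percentile, with open circles for values not well above background. The Ensembl transcript probe of Il1rap is high on 1 control array only, and the second Il1rl1 probe lacks the rise of the other Il1rl1 probes.

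Agonists were then set against antagonists and the receptor chain, as the difference between their log2 changes. Scanner values below background were raised to the lowest value well above it. Il1b changed by 6.24 more than Il1rn on the log2 scale, with 6.25 and 6.24 on the slides, which is 75.7-fold more. The standard deviation of the Il1b minus Il1rn value between arrays was 0.11 in each group, n = 2, far below that difference. Il1a changed by at least 3.82 more than Il1rn, and Il1f6 by 1.36 more, but with normexp background correction these differences were 2.07 and 0.30. Il1b changed by 7.16 more than Il1rap, which was read by its variant 2 probe alone. This sets Il1b against that transcript, not against every form of the chain. With normexp, Il1b minus Il1rn was 6.35 and Il1b minus Il1rap 7.83.

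For interleukin-18 and its binding protein the difference between changes was 0.43 on the log2 scale on the scanner arrays and 0.14 in the authors' table. The standard deviations in the table, 0.26 in control and 0.39 with AEPS (n = 3), were larger than that difference. It was 0 without the third control column of the table and -0.063 without the first AEPS column. Set against the control column of the same number, the 3 AEPS columns gave 0.29, 0.09 and 0.03, and the slides gave 0.48 and 0.37. The slides hold the arrays of the first and second columns, so these are 3 pairs and not more. Il18 changed more in each, by amounts that varied with the pair and the processing. With normexp background correction the difference was 0.83. Of 6 agonist pairs, 5 were computed, and Il1f9 minus Il1rn was not because Il1f9 was not tested. With 2 arrays per group the exact two-sided permutation test cannot go below p = 0.333, and all 5 pairs had that value before and after Benjamini-Hochberg adjustment. With 3 table columns per group the smallest possible p is 0.1, reached by the 4 pairs other than Il18 minus Il18bp (exact permutation p = 0.1, adjusted p = 0.125), and that pair had exact permutation p = 0.6. In the table, where dim values were not raised, Il1b minus Il1rn was 6.11, Il1f6 minus Il1rn 1.49 and Il1b minus Il1rap 6.67. Il1a minus Il1rn was 6.44 there, from Il1a control values near the lowest of the table. As Il1a passed the filter only through the AEPS arrays, that value and its p-value were not read beyond the bound.

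**Figure D3:**
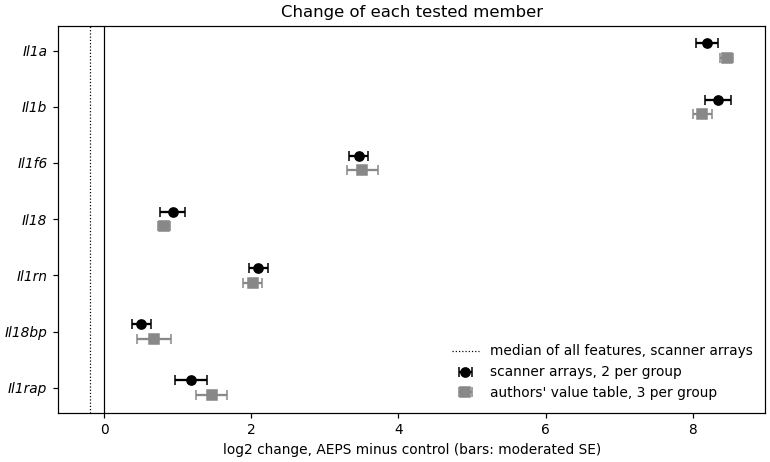
Log2 change of each tested member, AEPS minus control, from the scanner arrays (circles, 2 per group) and from the authors' value table (squares, 3 per group), with bars for limma's moderated standard error and a dotted line at the median of all features on the scanner arrays, -0.19. Il1a and Il1b lie above 8, Il1f6 at about 3.5, Il1rn at about 2 and the other genes below 1.5, and the fitted Il1a change starts from control values that are not well above background.

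Among 9 further receptors of the family, 3 were tested, 2 passed as higher (4.18% of all features did) and none as lower (2.94%), with a median change of 1.04 beside -0.19 over all features. Il18rap, the accessory chain of the interleukin-18 receptor, rose by 1.81 ± 0.22 on the log2 scale (limma, adjusted p = 0.0348). Its level was -1.96 and -1.49 in control and -0.02 and 0.18 with AEPS, while Il18r1, the ligand-binding chain, was not above background on any array. Il1rl1, the receptor for interleukin-33, rose by 1.04 ± 0.13 (limma, adjusted p = 0.0358) by its brightest probe, from levels of 3.34 and 3.26 to 4.35 and 4.34. Another Il1rl1 probe differed by 1.06 and a further one by -0.29. The call was lost when the probes were averaged (0.61, limma, adjusted p = 0.0860) or arrays were scaled to their median (1.27, limma, adjusted p = 0.0666). With median scaling the change was larger than 1.04, and the standard error of each of the 7 tested family members was 0.44. Sigirr, a member that dampens signalling, differed by -0.77 without passing (limma, adjusted p = 0.0724), and passed in the authors' table (-0.72, adjusted p = 0.00175). Il1r1 and Il1r2, the signalling and decoy receptors for interleukin-1, and Il1rl2, the interleukin-36 receptor, were not above background on any array, nor were Il1rapl1 and Il1rapl2.

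Of 4 further ligands, Il33, which encodes an alarmin, Il1f8, an interleukin-36 agonist, and Il1f5, the interleukin-36 receptor antagonist, were not above background on any array. Il1f10 was above background on the control arrays alone, so it entered the test only through them. With readings under the dimmest value well above background raised to it, Il1f10 was 1.69-fold lower with AEPS on the scanner arrays. Its levels were -3.41 and -4.38 in control and -4.43 and -4.92 with AEPS, so this is not a bound. The fitted change of -0.78 did not pass (limma, adjusted p = 0.264). It was -0.41 in the authors' table, -0.61 with normexp background correction and -0.12 with spike-in scaling. No further ligand of the family thus passed in the main fit.

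All 14 genes of processing and release were tested, 2 passed as higher and 1 as lower (4.18% and 2.94% of all features did), with a median change of 0.27. Nlrp3, the sensor of the inflammasome that activates caspase-1, rose by 2.76 ± 0.16 on the log2 scale (limma, adjusted p = 0.0137), from levels of -0.64 and -0.87 to 1.92 and 2.08. Casp4, which in mouse encodes the caspase-11 that senses intracellular lipopolysaccharide, rose by 1.28 ± 0.13 (limma, adjusted p = 0.0280). P2rx7, the ATP-gated channel that triggers inflammasome activation, fell by 1.38 on the log2 scale (limma, adjusted p = 0.0252). The P2rx7 call was lost with median scaling (-1.16, adjusted p = 0.113), spike-in scaling (-0.72, adjusted p = 0.111) and averaged probes (-0.87, adjusted p = 0.0552). The brightest gene that did not pass, Nlrp1a, differed by 0.08 (limma, adjusted p = 0.741). In the fit with the slide as a replicate block, 4 members of the list passed as higher and 2 as lower (13% and 16.8% of all features did).

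Of 17 receptor signalling genes 16 were tested, 2 passed as higher (4.18% of all features did) and none as lower (2.94%), with a median change of 0.37. Peli1, a ubiquitin ligase of the receptor complex, rose by 3.22 ± 0.19 on the log2 scale (limma, adjusted p = 0.0136). Tab2, an adaptor of the kinase encoded by Map3k7, rose by 1.40 ± 0.13 (limma, adjusted p = 0.0248). Irak2, a kinase of the receptor complex and the brightest gene that did not pass, differed by -0.12 (limma, adjusted p = 0.597), and by 0.53 with spike-in scaling. In the blocked fit, 8 members of the list passed as higher and 2 as lower, where 13% and 16.8% of all features did. When 1 scanner array was left out, its group held 1 array and fewer features passed in all. Calls of these lists in those fits were therefore not read. These lists were drawn up with earlier results of the data known.

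**Figure D4:**
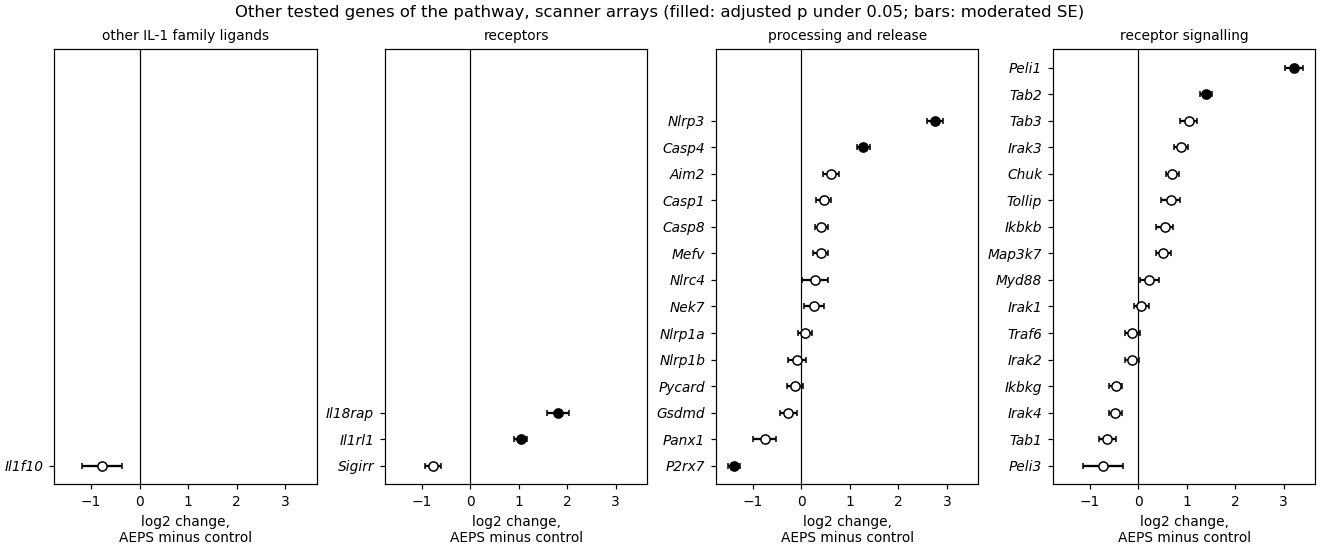
Log2 change, AEPS minus control, of each tested gene in 4 lists around the interleukin-1 family on the scanner arrays, with bars for limma's moderated standard error and filled circles for an adjusted p under 0.05. Peli1 at 3.22 and Nlrp3 at 2.76 lie farthest to the right, and P2rx7 is the only filled circle below 0. Il1f10 was not above background with AEPS, so its plotted change rests on background readings.

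The genes with profiles nearest to that of Il1b were found by the Euclidean distance between log2 profiles, each centred on its own mean, over the 6 columns of the authors' table and 14907 named genes. They were Cxcl2 at 0.48, Il1a at 0.50, Csf3 at 0.55, Cish at 0.61 and Lif at 0.98. Cxcl2 encodes a neutrophil chemokine, Csf3 the granulocyte growth factor, Cish a suppressor of cytokine signalling and Lif a cytokine of the interleukin-6 group. Of the 5, Cxcl2 alone was above background on both control arrays, as Il1b was, and in the table it changed by 7.77 beside 8.13 for Il1b. Csf3 was above background on 1 control array, and Il1a, Cish and Lif on 0, so their distances and their order rest on control readings at or near background.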

How the data were processed

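Agilent Feature Extraction 10.7.1.1 made the scanner files, per the file headers, and each deposited scanner file holds spot intensity after background subtraction, with no normalization between arrays. The authors' deposited value table is on a log2 scale with equal column medians of 4.72 over non-control probes, with a normalization not given in the sources used here. No gene centring was seen.

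Control spots and outlier flags were left out and spots of 1 probe averaged. The processed signal over the 75th percentile of its array (401 and 287 in control, 575 and 488 with AEPS) was put on a log2 scale and fitted with limma 3.58.1 in R 4.3.3 and adjusted by the Benjamini-Hochberg method over 25933 features. To be tested, a probe had to be well above background on all arrays of 1 group or both, and a gene was represented by its brightest tested probe. Of 55681 probes, 26582 were named by accession through RefSeq and 4501 by the scanner annotation alone. The number of arrays limits the precision. The fit was tested on simulated data.

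Named were the 8 members, every gene of a list past the threshold and the brightest not past it, and the 5 genes nearest to Il1b; Sigirr, the other Il1rap and Il1rl1 probes, and receptors and ligands not above background were added after their values were seen. Members and lists were chosen with earlier results of these data known. Alternatives were the authors' table, the replicate block, other background corrections, scalings, filters and probe rules, and leaving out each array or column.

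Same-numbered table columns deviated together from their group means (correlation across features 0.55, 0.35 and 0.39, other pairs -0.48 to 0.23), as did arrays of 1 slide (0.59). The same-numbered columns and the arrays of 1 slide were above the bound of 0.1, so replicate numbers were taken to pair the samples. The third control column with the second AEPS column, at 0.23, was also above it, so the bound alone does not single out the same-numbered pairs.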

Additional observations from a re-analysis of the deposited data

How the results depend on the processing

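With 2 distinct arrays per group, the number of features past the threshold moved widely. It was 1846 on the scanner arrays, 7723 with the slide as a replicate block, 8674 in the authors' table, 12915 in the table with the replicate block, 4592 with normexp correction, 2921 with quantile normalization, 6080 with spike-in scaling and 7 to 7461 when an array or column was left out. Without a filter on dim probes limma called 0 of 48115 features (7356 at an unadjusted p under 0.05), and Il1a, Il1b, Il1rn and Il1f6, with changes of 8.19, 8.34, 2.10 and 3.46, missed the threshold (adjusted p = 0.0605, 0.0605, 0.108 and 0.0632). Features passing as higher and lower numbered 1083 and 763 on the scanner arrays, 1901 and 2691 with normexp, 3365 and 4358 with the block, 4426 and 4248 in the table, 1042 and 445 with median scaling and 5889 and 191 with spike-in scaling. The median change of all features was 0.04 with median scaling and 0.47 with spike-in scaling. No member changed direction under any alternative. Il18 passed with the replicate block (0.93), in the table without and with the block (0.81 in both), with normexp (0.91), quantile (0.90) and spike-in scaling (1.59), and with only probes above background everywhere (0.93). Il18bp passed with the block (0.51), in the table with the block (0.68) and with spike-in scaling (1.16). Il1rap passed in the table without and with the block (1.46 in both), with median (1.41) and spike-in scaling (1.84), and with only probes above background everywhere (1.18).

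Leaving out an array or column gave changes of 8.08 to 8.52 for Il1a, 8.01 to 8.47 for Il1b, 1.91 to 2.15 for Il1rn, 0.77 to 1.07 for Il18, 0.47 to 0.86 for Il18bp, 3.33 to 3.72 for Il1f6 and 0.95 to 1.69 for Il1rap. Il18bp passed in the table without AEPS replicate 1 (adjusted p = 0.0421). With an array or column left out, the difference between changes was 6.09 to 6.32 for Il1b minus Il1rn, 3.75 to 3.88 for Il1a minus Il1rn on the scanner arrays (a bound, with dim values raised to the background floor) and 6.36 to 6.55 in the table (no floor), 6.49 to 7.49 for Il1b minus Il1rap and 1.30 to 1.58 for Il1f6 minus Il1rn. For Il18 minus Il18bp it ran from -0.063 to 0.53, below 0 in the table without AEPS replicate 1 (-0.063). Under the other alternatives the lowest values were 2.07 for Il1a minus Il1rn and 0.30 for Il1f6 minus Il1rn, and the highest for Il18 minus Il18bp was 0.83, all with normexp. Over all 25933 tested features, 1846 passed on the scanner arrays, 7723 with the block, 8674 in the table and 12915 in the table with the block. It was 4592 with normexp, 2921 with quantile normalization, 6080 with spike-in scaling, 1487 with median scaling and 1820 with averaged probes. With only probes above background everywhere, 2255 of 23712 passed, and without a filter 0 of 48115. Beside this, the count of processing and release genes past the threshold, 3 on the scanner arrays, was 6 with the block and 8 in the table. It was 10 in the table with the block, 8 with spike-in scaling and 0 without a filter. For receptor signalling, 2 on the scanner arrays, it was 10 with the block, 10 in the table, 12 in the table with the block, 6 with normexp, 4 with quantile normalization, 9 with spike-in scaling, 0 without a filter and 4 with only probes above background everywhere. For receptors, 2 on the scanner arrays, it was 1 with median scaling, 1 with averaged probes and 0 without a filter, and for other ligands it was 1 with normexp, Il1f10 (-0.61). Leaving out a column of the table gave 4 to 7, 8 to 10 and 3 for processing, signalling and receptors, where 5614 to 7461 of 25933 features passed. With a scanner array left out, 1 group held 1 array, fewer features passed in all, and the list counts were not read. The cause of these moves was not tested. A lone remaining array was taken to vary like the other group.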

Other observations

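In the authors' value table, the Il1rap probe of the Ensembl transcript read 6.93 in the first control column and 3.76 and 4.64 in the others, against 2.94, 2.96 and 4.33 with AEPS. The Il1rap variant 1 probe read 1.59, 1.58 and 1.48 in control and 3.02, 3.80 and 3.48 with AEPS, without overlap, as 23.4% of tested features had all AEPS values above all control values. Some markers of other cell types were also above background on every array, namely Cd3e of 3 T cell markers, Cd79a of 3 B cell markers, Elane and Camp of the 3 neutrophil markers found on the array and Col1a2 of 3 fibroblast markers, and 0 of 2 mast cell markers. The summed signal over the array's 75th percentile was 9.72 and 7.45 in control and 7.36 and 4.65 with AEPS for T cell markers, and 11.7 and 11.9 in control and 9.24 and 7.11 with AEPS for neutrophil markers. It was between 0.0277 and 0.656 on every array for the B cell, fibroblast, epithelial and mast cell lists. The part of these markers in the results was not tested.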
